A study of Mus musculus with 38 samples.

Results

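The genes described here are the 3 nitric oxide synthases, Nos1, Nos2 and Nos3, with 6 genes that set how much nitric oxide these enzymes make or that act on the cyclic GMP (cGMP) formed in response: Ddah1, Ddah2, Gch1, Cav1, Prkg1 and Pde5a. They were taken by symbol from the deposited gene tables, 9 of 29564 genes, because the HFpEF model rests on a blocker of this pathway. RNA-seq of the left ventricle was available from 38 wild-type C57BL6 mice, 1 library per mouse. The 4 groups were non_failing hearts of vehicle-treated controls (n = 8), and HFpEF mice given vehicle (HFpEF+Veh, n = 8), TYA-018, which blocks histone deacetylase HDAC6 (n = 11, HFpEF+TYA-018), or empagliflozin, a blocker of the glucose carrier SGLT2 (n = 11, HFpEF+SGLT2i). HFpEF, heart failure with preserved ejection fraction, was modelled by a high-fat diet with L-NAME, so all 3 HFpEF groups shared the diet and the inhibitor and no group had only 1 of them. The drugs were dosed orally once a day, the labels record females where the study's methods describe males, and ages at collection are not given in the labels.

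Nitric oxide synthases make nitric oxide from L-arginine and need tetrahydrobiopterin as a cofactor. L-NAME is an arginine analogue that blocks all 3 isoforms at the level of the enzyme, so RNA levels do not report the degree of block. Nos3 is the endothelial form, Nos1 the neuronal form, which cardiomyocytes also use, and Nos2 the form induced in inflammation. Nitric oxide activates soluble guanylate cyclase, the cGMP formed activates the kinase encoded by Prkg1, and phosphodiesterases such as Pde5a end the signal. Ddah1 and Ddah2 belong to the dimethylarginine dimethylaminohydrolases, which clear the body's own methylarginine inhibitors of the synthases. Gch1 encodes GTP cyclohydrolase, the rate-limiting enzyme of tetrahydrobiopterin synthesis. Cav1 encodes caveolin-1, the caveolar coat protein that binds the endothelial synthase and holds it inactive.

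Libraries held 21451600 to 59280400 estimated counts (median 29527600). The cardiomyocyte markers Myh6 and Tnnt2 had group medians of 483 to 566 and 3706 to 4850 TPM (transcript abundance corrected for length and library size), while none of 4 adipocyte markers passed the filter on low counts. One HFpEF+Veh library, V2523, carried a summed level of 1331 TPM over 8 hepatocyte genes, against a group median of 5.37 TPM in HFpEF+Veh, 2.40 TPM in HFpEF+TYA-018 and 3.30 TPM in HFpEF+SGLT2i. Hepatocyte transcripts were also present in every non_failing library, at 22.4 to 339 TPM. Results that rest on these libraries are given with their values without V2523.

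On the length-corrected TPM scale the members spanned 4 orders of magnitude (the plot of TPM by group). Cav1 stood first with a median of 130 TPM over all libraries, and its lowest library, at 91.4 TPM, lay above the highest library of every other member. Ddah2 followed at 15.6 TPM and Nos3 at 14.1 TPM, and their ranges overlapped (10.8 to 24.5 and 8.68 to 22.4 TPM). Gch1 at 3.06 TPM and Nos2 at 2.53 TPM came next with overlapping ranges. Prkg1 at 0.938 TPM, Ddah1 at 0.853 TPM and Pde5a at 0.552 TPM overlapped too, with 48 to 505 counts per library, and the lowest Nos2 library, at 1.22 TPM, lay below the highest of Ddah1 (1.98 TPM) and Prkg1 (1.54 TPM). Nos1 was last, at a median of 0.0102 TPM.

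**Figure D1:**
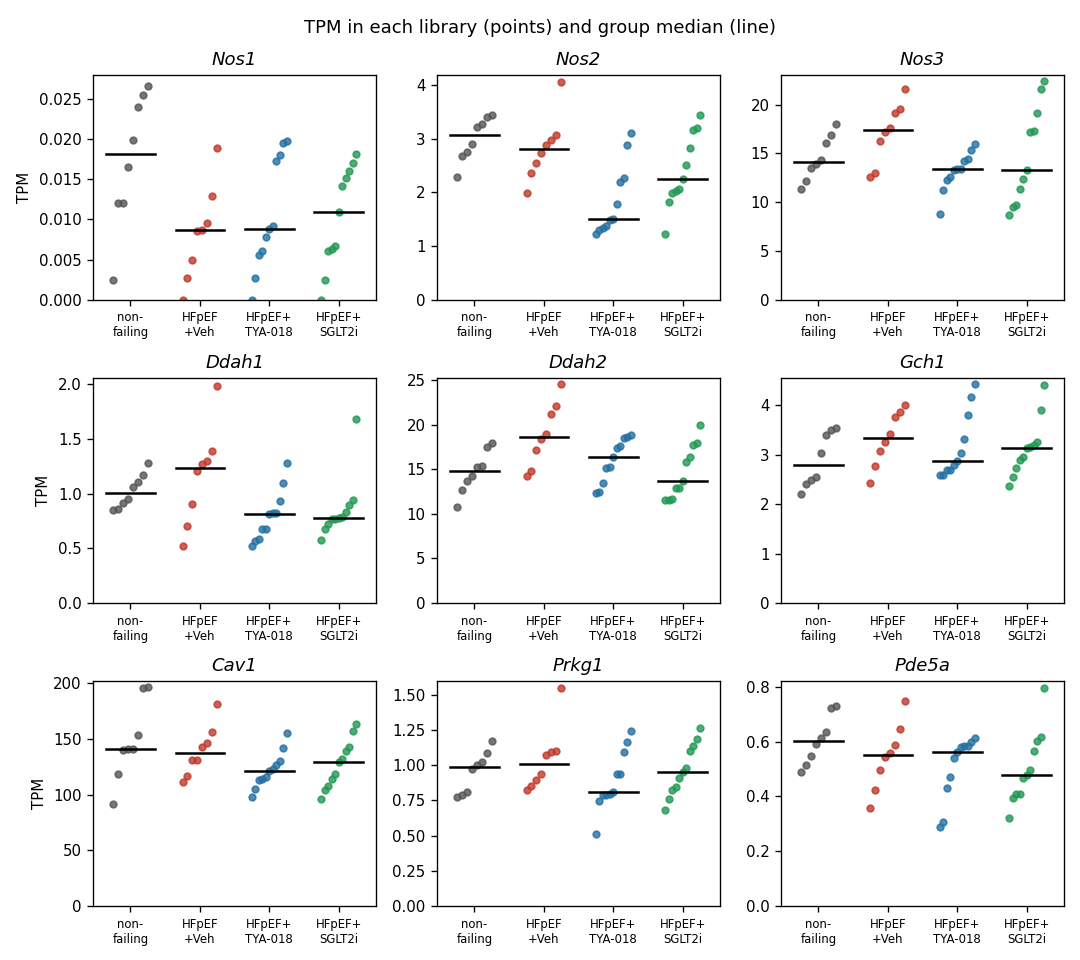
TPM of the 9 members, 1 panel per gene, with 1 point per library, libraries sorted by level within each of the 4 groups and the group median as a line; each vertical axis starts at 0 and has its own scale. For Nos2, 9 of 11 HFpEF+TYA-018 libraries lie under the lowest non_failing library at 2.29 TPM, and for Ddah1 8 of 11 lie under theirs at 0.851 TPM.

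Among the synthases, Nos3 was the most abundant transcript in every group. Its share of the summed TPM of the 3 synthases had group medians of 83.2% in non_failing, 85.9% in HFpEF+Veh, 88.1% in HFpEF+TYA-018 and 85.005% in HFpEF+SGLT2i. The Nos2 share was 16.7% in non_failing, 14.1% in HFpEF+Veh, 11.8% in HFpEF+TYA-018 and 14.9% in HFpEF+SGLT2i. These shares are descriptions with overlapping group ranges and were not tested.

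Nos2, the inducible synthase (chromosome 11, 78920787 to 78960254, GRCm38), was the only member with a called change. In non_failing it ranged from 2.29 to 3.44 TPM with a median of 3.06 TPM. HFpEF+Veh lay at 1.98 to 4.04 TPM, with a median of 2.81 TPM. HFpEF+TYA-018 lay at 1.22 to 3.10 TPM with a median of 1.51 TPM, and HFpEF+SGLT2i at 1.22 to 3.44 TPM with a median of 2.25 TPM. Of the HFpEF+TYA-018 libraries, 9 lay at or under 2.27 TPM, and V2570 and V2546 at 2.88 and 3.10 TPM. Every library had at least 114 counts of Nos2, so its level was far from the detection limit.

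Nos2 was lower in HFpEF+TYA-018 than in non_failing by a log2 fold change of -0.68 (SE 0.16, edgeR quasi-likelihood test, adjusted p = 0.00612). On the CPM scale 9 of 11 treated libraries lay below every non_failing library. This was 1 member called of 8 tested, while 7.39% of all genes tested were called in that comparison and 3.39% were called lower. The call held in all 38 fits that left out 1 library, with adjusted p between 0.000802 and 0.0142, and without V2523 (log2 fold change -0.67, adjusted p = 0.00661). That comparison differs in diet, L-NAME and drug at once.

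Against HFpEF+Veh, which differs from HFpEF+TYA-018 only in the drug, the log2 fold change of Nos2 was -0.49 (SE 0.16, 95% interval -0.82 to -0.17) and missed the threshold (p = 0.00408, adjusted p = 0.0959). Of the 11 treated libraries, 9 were below the HFpEF+Veh mean and 7 below every HFpEF+Veh library. The adjusted p passed 0.05 when V2546 (0.0316) or V2570 (0.0433) was left out, with library size as the only scaling (0.0210) and with 1 surrogate variable (0.0493), and ranged up to 0.157 without V2521. Library size alone moved the median of all genes by -0.13 and called 1096 genes in place of 266. With 1 surrogate variable 1239 genes were called. Between HFpEF+Veh and non_failing the log2 fold change was -0.19 (SE 0.17, adjusted p = 0.646). HFpEF+SGLT2i against HFpEF+Veh gave -0.13 (95% interval -0.45 to 0.20), and HFpEF+TYA-018 against HFpEF+SGLT2i, the test of the difference between the drugs, gave -0.36 (95% interval -0.67 to -0.06, adjusted p = 0.283).

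Macrophages are a known source of inducible synthase. The summed level of 8 macrophage markers was 60.0 to 112 TPM in non_failing, 90.2 to 154 TPM in HFpEF+Veh, 62.4 to 167 TPM in HFpEF+TYA-018 and 82.3 to 145 TPM in HFpEF+SGLT2i. None of the 8 was called in HFpEF+TYA-018 against non_failing or HFpEF+Veh. Against non_failing, 7 had positive log2 fold changes and 1 negative (median 0.19 beside 0.01 over all genes). Against HFpEF+Veh, 2 were positive and 6 negative (median -0.07 beside -0.01). The part of any cell type in the Nos2 levels was not tested, and in whole ventricle RNA fewer cells of a type and less RNA per cell cannot be told apart. Of the genes whose level followed Nos2 most closely across the 38 libraries, after subtraction of group means, Akap5, an anchoring protein for kinases, stood first (r = 0.74), followed by Ift122 (r = 0.72) and the basement membrane collagen Col15a1 (r = 0.69). These are descriptions over 38 libraries that share depth and composition.

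Nos3, the endothelial synthase (chromosome 5, 24364810 to 24384474), lay at 11.3 to 18.03 TPM in non_failing (median 14.1 TPM). HFpEF+Veh ranged from 12.6 to 21.6 TPM (median 17.4 TPM). In HFpEF+TYA-018 the median was 13.4 TPM (8.76 to 16.0 TPM), and in HFpEF+SGLT2i 13.3 TPM (8.68 to 22.4 TPM). All 4 ranges overlapped, and no comparison was called. The log2 fold change was 0.14 in HFpEF+Veh against non_failing (SE 0.15, adjusted p = 0.703), -0.28 in HFpEF+TYA-018 against HFpEF+Veh (SE 0.14, adjusted p = 0.305) and -0.14 in HFpEF+SGLT2i against HFpEF+Veh (SE 0.14, adjusted p = 0.784).

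In HFpEF+TYA-018, 10 of 11 libraries had less Nos3 than the HFpEF+Veh mean. The 10 endothelial markers, among them Pecam1 and Cdh5, moved with it: all 10 had negative log2 fold changes in that comparison, with a median of -0.13 beside -0.01 over all genes, and none was called. Their summed level was 459 to 732 TPM in HFpEF+Veh and 385 to 580 TPM in HFpEF+TYA-018. The part of the endothelial share in Nos3 was not tested. With 1 surrogate variable in the model, a factor estimated from the data, the Nos3 log2 fold change stayed at -0.28 with a smaller SE of 0.09 (adjusted p = 0.0354). The same model also called Nos3 in HFpEF+TYA-018 against non_failing (log2 fold change -0.26, adjusted p = 0.0391), where the value without it was -0.14 (adjusted p = 0.629). Of 13765 genes, that model called 1239 against HFpEF+Veh, in place of 266, and 1946 against non_failing, in place of 1017. On the strand opposite to Nos3, annotated transcripts share 25.1% of its 31-base runs, and how reads were assigned by strand is not given in the sources used here.

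Nos1, the neuronal synthase (chromosome 5, 117781032 to 117958840), was at the limit of detection. Libraries held 0 to 13 counts of it. A floor of 3 counts corresponded to 0.0506 to 0.140 CPM (counts scaled to library size) depending on the library, or 0.0044 to 0.0114 TPM, and 18 of 38 libraries exceeded it. With a floor of 0 counts the number was 35, and with a floor of 10 counts it was 1. These floors cover counting error only.

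Counts above the floor were found in 7 of 8 non_failing libraries (1 to 10 counts, median 7), 2 of 8 HFpEF+Veh (0 to 13, median 3), 4 of 11 HFpEF+TYA-018 (0 to 8, median 3) and 5 of 11 HFpEF+SGLT2i libraries (0 to 10, median 3). Summed over a group this was 54 counts, or 0.209 CPM, for non_failing and 30 counts, or 0.115 CPM, for HFpEF+Veh. Of these 30 counts, 13 came from V2532, the deepest library of HFpEF+Veh. Nos1 did not pass the filter and was left out of the fit across genes. The mean level was 0.213 CPM in non_failing and 0.1004 CPM in HFpEF+Veh, a difference of -0.11 CPM (two-sided exact permutation test, p = 0.0244, adjusted over 6 comparisons 0.126). HFpEF+SGLT2i against non_failing gave -0.09 CPM (exact permutation test, p = 0.0421, adjusted p = 0.126), and none of the 6 comparisons passed after adjustment. Differences among the HFpEF groups were not detectable at this depth.

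**Figure D2:**
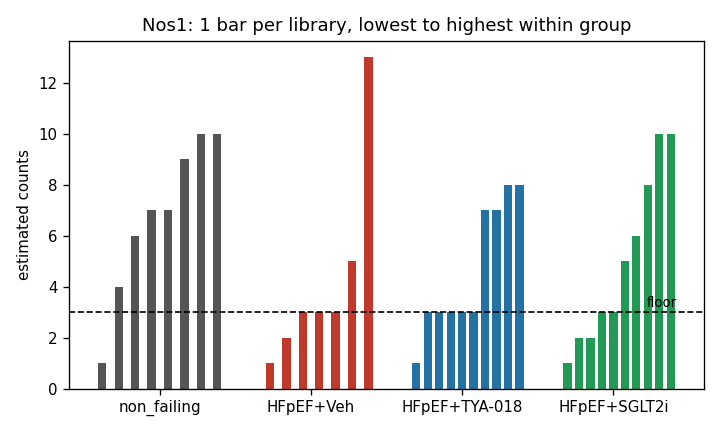
Estimated counts of Nos1, 1 bar per library sorted by count within each of the 4 groups, with the floor of 3 counts as a dashed line. Of the 8 non_failing libraries 7 rise over the line, and most HFpEF libraries sit at or under it.

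The dimethylaminohydrolases were unequal in level. By summed TPM, Ddah1 made up a median of 6.76% of the pair in non_failing, 5.16% in HFpEF+Veh, 4.39% in HFpEF+TYA-018 and 5.50% in HFpEF+SGLT2i. By estimated counts, which are not corrected for length, these shares were 15.0%, 12.1%, 9.94% and 12.3%. Ddah1 (chromosome 3, 145758675 to 145894277) lay at 0.851 to 1.27 TPM in non_failing, 0.520 to 1.98 TPM in HFpEF+Veh, 0.519 to 1.28 TPM in HFpEF+TYA-018 and 0.574 to 1.68 TPM in HFpEF+SGLT2i. The HFpEF+Veh range enclosed those of the other groups except for the lowest HFpEF+TYA-018 library, which was nearly level with it.

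Its log2 fold change was 0.08 in HFpEF+Veh against non_failing (SE 0.18, adjusted p = 0.878). It was -0.40 in HFpEF+TYA-018 against HFpEF+Veh (SE 0.17, p = 0.0196, adjusted p = 0.186) and -0.37 in HFpEF+SGLT2i against HFpEF+Veh (SE 0.17, p = 0.0322, adjusted p = 0.432). In each drug group 10 of 11 libraries lay below the HFpEF+Veh mean, and on the CPM scale 6 of 11 HFpEF+TYA-018 and 7 of 11 HFpEF+SGLT2i libraries lay below every non_failing library (8 of 11 in each on the TPM scale). Against non_failing, TYA-018 gave -0.33 (p = 0.0565, adjusted p = 0.244). Without V2523 the value for TYA-018 moved to -0.26 (adjusted p = 0.368), that for SGLT2i to -0.23 (adjusted p = 0.605), and that of HFpEF+Veh against non_failing turned to -0.06. Among the alternatives run, Ddah1 passed the threshold for TYA-018 against HFpEF+Veh only with library size as the sole scaling (log2 fold change -0.54, adjusted p = 0.0467), a setting that moved the median of all genes by -0.13.

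Ddah2 (chromosome 17, 35059035 to 35062095) lay at 10.8 to 17.97 TPM in non_failing (median 14.8 TPM). HFpEF+Veh was at 14.3 to 24.5 TPM (median 18.7 TPM), HFpEF+TYA-018 at 12.3 to 18.9 TPM (median 16.4 TPM) and HFpEF+SGLT2i at 11.5 to 19.9 TPM (median 13.7 TPM). The log2 fold change in HFpEF+Veh against non_failing was 0.25 (SE 0.12, p = 0.0444) and was not called after adjustment (adjusted p = 0.301), with 6 of 8 libraries above the non_failing mean. HFpEF+TYA-018 against HFpEF+Veh gave -0.07 (95% interval -0.30 to 0.16). HFpEF+SGLT2i against HFpEF+Veh gave -0.25 (SE 0.11, p = 0.0307, adjusted p = 0.425), with 10 of 11 libraries below the HFpEF+Veh mean.

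Gch1, which limits cofactor synthesis (chromosome 14, 47153895 to 47189413), had group medians of 2.79 TPM in non_failing, 3.34 TPM in HFpEF+Veh, 2.87 TPM in HFpEF+TYA-018 and 3.13 TPM in HFpEF+SGLT2i, within an overall range of 2.20 to 4.44 TPM. Its log2 fold changes were 0.10 in HFpEF+Veh against non_failing (95% interval -0.15 to 0.36), 0.08 in HFpEF+TYA-018 against HFpEF+Veh (-0.15 to 0.32) and 0.02 in HFpEF+SGLT2i against HFpEF+Veh (-0.21 to 0.25). None was called. Gchfr, the feedback regulator of the cyclohydrolase, had medians of 4.47, 2.35, 2.96 and 2.38 TPM in the same order of groups, and was called lower in HFpEF+SGLT2i against non_failing (log2 fold change -0.89, SE 0.21, adjusted p = 0.00668). That call held in all 38 fits without 1 library (adjusted p up to 0.0184, without V2504). Its value in HFpEF+Veh against non_failing was -0.69 (adjusted p = 0.0993), and without V2523 it was called at -0.80 (adjusted p = 0.0427). It was also called at -0.93 (adjusted p = 0.00921) without V2526, its highest HFpEF+Veh library at 5.64 TPM. These were the only 2 of 38 fits without 1 library that called it there. The highest non_failing library for Gchfr, V2504, also had the most hepatocyte transcripts of its group (339 TPM), and 7 of 8 hepatocyte markers were called lower in HFpEF+SGLT2i against non_failing. Beyond that fit without V2504, their part in Gchfr was not tested. Gch1 varied across libraries most like Ccl6, a chemokine (r = 0.73), Pxdc1 (r = 0.72) and Plaur, the urokinase receptor (r = 0.71).

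Cav1 (chromosome 6, 17306335 to 17341452) was read with 5726 to 16964 counts per library, the deepest of the members. It lay at 91.4 to 196 TPM in non_failing (median 141 TPM), 111 to 181 TPM in HFpEF+Veh (median 137 TPM), 98.3 to 155 TPM in HFpEF+TYA-018 (median 122 TPM) and 96.3 to 163 TPM in HFpEF+SGLT2i (median 129 TPM). The groups overlapped throughout. The log2 fold change was -0.18 in HFpEF+Veh against non_failing (95% interval -0.42 to 0.06, adjusted p = 0.488). It was -0.04 in both drug groups against HFpEF+Veh (95% intervals -0.27 to 0.18 and -0.27 to 0.19).

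On the cGMP side, Prkg1 (chromosome 19, 30564489 to 31765033) had group medians of 0.989 TPM in non_failing, 1.01 TPM in HFpEF+Veh, 0.812 TPM in HFpEF+TYA-018 and 0.953 TPM in HFpEF+SGLT2i. Its log2 fold change was 0.02 in HFpEF+Veh against non_failing (95% interval -0.23 to 0.28), -0.07 in HFpEF+TYA-018 against HFpEF+Veh (-0.30 to 0.17) and -0.06 in HFpEF+SGLT2i against HFpEF+Veh (-0.29 to 0.18). None was called.

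Pde5a, the cGMP-specific phosphodiesterase blocked by sildenafil (chromosome 3, 122728947 to 122859374), had medians of 0.602 TPM in non_failing, 0.550 TPM in HFpEF+Veh, 0.563 TPM in HFpEF+TYA-018 and 0.479 TPM in HFpEF+SGLT2i, on 65 to 207 counts per library. The log2 fold change was -0.22 in HFpEF+Veh against non_failing (95% interval -0.57 to 0.13, adjusted p = 0.570). It was 0.02 in HFpEF+TYA-018 against HFpEF+Veh (-0.31 to 0.35) and -0.07 in HFpEF+SGLT2i against HFpEF+Veh (-0.40 to 0.26). The genes most like Pde5a across libraries were Clec1b (r = 0.70), Gp9 (r = 0.69) and Ppbp (r = 0.68), all known from platelets and megakaryocytes.

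In all, 0 of the 8 tested members were called in HFpEF+Veh against non_failing, where 3.15% of the 13765 genes tested were called by edgeR. The same held for HFpEF+TYA-018 against HFpEF+Veh (1.93% of all genes called), HFpEF+SGLT2i against HFpEF+Veh (0.850%), HFpEF+TYA-018 against HFpEF+SGLT2i (0.00%, with 1821 genes at an unadjusted p under 0.05 and 187 called by DESeq2) and HFpEF+SGLT2i against non_failing (6.45%). Before adjustment, p was under 0.05 for Ddah2 in the first of these, for Nos2 and Ddah1 in the second, for Ddah1 and Ddah2 in the third and for Nos2 in the fourth. The fitted changes of all 8 with their intervals are drawn in the plot of fitted changes. Comparisons that use the same group share its libraries and are not independent.

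**Figure D3:**
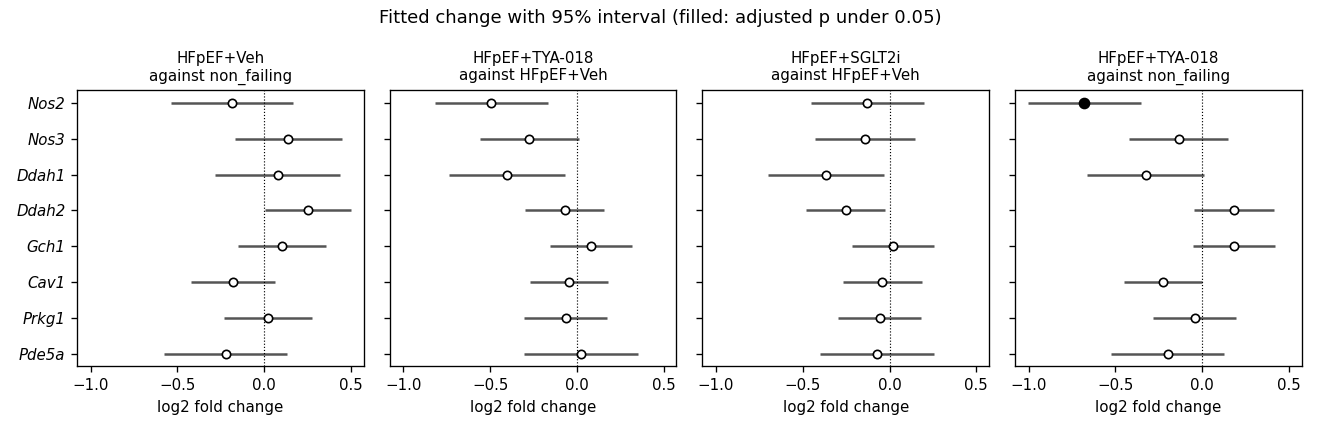
Log2 fold change (points) with 95% interval (lines) of the 8 members that passed the filter in 4 comparisons; filled points have an adjusted p under 0.05. The only filled point is Nos2 in HFpEF+TYA-018 against non_failing, at -0.68.

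Some members varied together across libraries within the groups: of 28 pairs, 9 had a permutation adjusted p under 0.05, 6 of them positive and 3 negative, and no pair with Nos2 or Gch1 was among them (smallest permutation adjusted p = 0.216 and 0.203). The share of pairs among all genes that would pass was not computed. Whether 9 of 28 is more than for other genes is therefore not known. Nos3 and Ddah2 were high in the same libraries (Pearson r = 0.81, Spearman rho = 0.85, group means subtracted, n = 38), and so did Ddah2 and Cav1 (r = 0.68, rho = 0.67). Nos3 and Prkg1 ran in opposite directions (r = -0.68, rho = -0.65). For these 3 of the 28 pairs the permutation p-values of r were at the smallest value that 100000 permutations can give (adjusted p = 9.33e-05), those of rho gave adjusted p of 0.000280, 0.000467 and 0.000420, and r without the 2 farthest libraries was 0.78, 0.68 and -0.61. The genes closest to Nos3 were Rasip1 and Robo4 (r = 0.93 each), both endothelial, and Dennd3 (r = 0.92). Those closest to Ddah2 were Icam2 (r = 0.89), an endothelial adhesion molecule, Plac9b (r = 0.88) and Ecscr (r = 0.87). Cav1 was closest to Tmod3, Sparcl1 and Cyyr1 (r = 0.87 each) and Prkg1 to Ppm1b (r = 0.90), Pam (r = 0.89) and Rhoq (r = 0.88). Ddah1 was closest to Me2 (r = 0.75), Il13ra1 and 2810006K23Rik (r = 0.74 each). These neighbours depend on the measure: by Spearman rho the 3 closest genes kept 0 of the 3 for Ddah1, 1 for Gch1 and Ddah2 and 2 for the other members, and without subtraction of group means 1 for Ddah1 and Cav1, 3 for Ddah2 and 2 for the others.

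The promoters of Ddah2, Cav1 and Prkg1 are shown because these members form the strongest positive and negative relations with a RefSeq promoter to print; 7 of the 9 members were in the table used, without Nos2 and Nos3. Each window runs from 250 bases before to 50 bases after the annotated start on GRCm38.p6. Capitals mark the GC box GGGCGG, the CACCC box and the TATA box TATAAA, searched on both strands.
Ddah2, plus strand, chr17:35058785-35059084: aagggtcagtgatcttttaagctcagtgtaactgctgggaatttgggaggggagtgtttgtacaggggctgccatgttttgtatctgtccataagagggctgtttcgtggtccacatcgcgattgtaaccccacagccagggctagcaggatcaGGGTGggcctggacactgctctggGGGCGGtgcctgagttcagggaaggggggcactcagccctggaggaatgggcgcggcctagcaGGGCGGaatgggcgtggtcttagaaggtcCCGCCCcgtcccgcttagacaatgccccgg
Cav1, plus strand, chr6:17306085-17306384: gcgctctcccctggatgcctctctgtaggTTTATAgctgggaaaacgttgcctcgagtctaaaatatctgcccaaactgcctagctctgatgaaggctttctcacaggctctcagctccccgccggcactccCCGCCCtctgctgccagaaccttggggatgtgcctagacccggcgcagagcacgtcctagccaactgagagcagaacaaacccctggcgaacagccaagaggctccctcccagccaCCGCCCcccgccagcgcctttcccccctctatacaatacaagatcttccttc
Prkg1, minus strand, chr19:31764984-31765283: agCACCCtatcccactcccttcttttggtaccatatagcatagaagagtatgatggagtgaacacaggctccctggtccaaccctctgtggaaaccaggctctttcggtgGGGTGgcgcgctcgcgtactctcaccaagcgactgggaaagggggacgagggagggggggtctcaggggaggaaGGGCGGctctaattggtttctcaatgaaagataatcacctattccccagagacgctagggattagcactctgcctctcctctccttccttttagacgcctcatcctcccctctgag
The windows printed held 3 GC boxes and 1 CACCC box for Ddah2, 2 GC boxes and 1 TATA box for Cav1, and 1 GC box and 2 CACCC boxes for Prkg1. Cav1 and Prkg1 each have a second annotated start, whose windows held 1 CACCC box (Cav1) and 1 GC box (Prkg1) and none of the other motifs. Among 32851 promoters of the same length, 35.7% held a GC box, 57.5% a CACCC box and 13.6% a TATA box. These are matches of letters, and nothing in the RNA data bears on binding there.

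Several of these members also moved with a property of the library, the median effective transcript length, which salmon estimates for each library. Its range was 1897 to 2160 bases in non_failing, 1901 to 2301 in HFpEF+Veh, 1785 to 2205 in HFpEF+TYA-018 and 1973 to 2355 in HFpEF+SGLT2i. With group means subtracted, Nos3 (r = -0.63, rho = -0.66, permutation adjusted p = 0.000107 and 2.67e-05) and Ddah2 (r = -0.69, rho = -0.72, permutation adjusted p = 8.00e-05 and 2.67e-05) were lower in libraries with a longer median effective length. Prkg1 was higher in them (r = 0.79, rho = 0.75, permutation adjusted p = 8.00e-05 and 2.67e-05), as was Ddah1 (r = 0.56, rho = 0.58, permutation adjusted p = 0.00170 and 0.000800). Without the 2 farthest libraries r was -0.56, -0.63, 0.71 and 0.50 for these genes. The relation was weaker for Cav1 (r = -0.34, rho = -0.38, permutation adjusted p = 0.0398 and 0.0306; r = -0.30 without the 2 farthest) and for Pde5a (r = -0.34, rho = -0.36, permutation adjusted p = 0.0696 and 0.0489; r = -0.33). Nos2 (r = 0.04, rho = 0.08, permutation p = 0.848 and 0.683) and Gch1 (r = -0.04, rho = -0.02, permutation p = 0.811 and 0.896) gave values near 0, among 8 genes examined.

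Within groups r for Nos3 was -0.46 in non_failing, -0.80 in HFpEF+Veh, -0.44 in HFpEF+TYA-018 and -0.81 in HFpEF+SGLT2i, and for Prkg1 it was 0.78, 0.81, 0.75 and 0.83. With that length as a covariate, no member changed its call, and the Nos3 log2 fold change in HFpEF+TYA-018 against HFpEF+Veh was -0.33 (adjusted p = 0.0661).

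**Figure D4:**
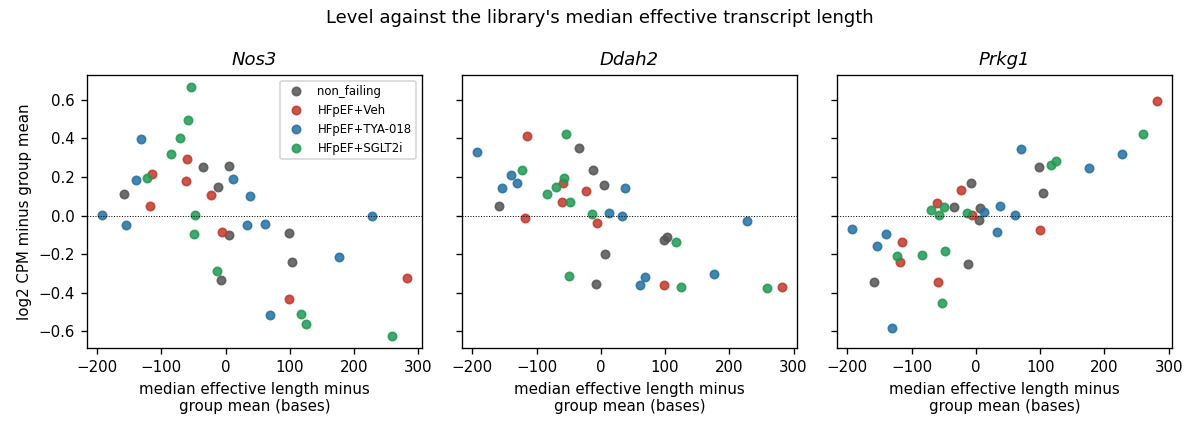
Log2 CPM of Nos3, Ddah2 and Prkg1 (vertical axis) against the median effective transcript length of the library in bases (horizontal axis), both with the group mean subtracted; each point is 1 of 38 libraries, coloured by group. Nos3 and Ddah2 slope down and Prkg1 slopes up.

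Around the members, a list of 66 further genes of the pathway was examined, of which 61 were tested. In HFpEF+Veh against non_failing 1 was called higher and 3 lower, 6.56% of the list beside 3.15% of all genes (1.77% higher and 1.38% lower), and the list's median log2 fold change was -0.01 beside 0.01. By role, the calls were 1 lower of 20 synthase regulators and arginine supply genes, 1 lower of 9 cGMP kinases, partners and substrates, and 1 higher and 1 lower of 12 phosphodiesterases and exporters. None was called of 6 tetrahydrobiopterin genes, 5 guanylate cyclases and natriuretic peptide receptors or 9 nitrosothiol and heme genes. Without V2523, the list had 10 calls in this comparison in place of 4, while the count over all genes went from 433 to 620. The soluble cyclase subunits Gucy1a1 and Gucy1b1 which receive nitric oxide, had group medians of 3.82 to 4.48 and 6.37 to 7.36 TPM, and no call in any comparison.

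Pde1c, a calmodulin-dependent phosphodiesterase that hydrolyses cAMP and cGMP (chromosome 6, 56069804 to 56569103), had the smallest p of these 4. It lay at 3.09 to 5.11 TPM in non_failing and at 1.15 to 2.46 TPM in HFpEF+Veh, and these groups did not overlap. The log2 fold change was -1.35 (SE 0.18, adjusted p = 6.57e-06). HFpEF+TYA-018 (1.25 to 2.77 TPM) and HFpEF+SGLT2i (1.20 to 3.06 TPM) also lay under the non_failing range, with log2 fold changes of -0.91 (adjusted p = 0.000326) and -1.08 (adjusted p = 2.66e-05) against non_failing. Against HFpEF+Veh the drug groups gave 0.45 for TYA-018 (adjusted p = 0.147) and 0.27 for SGLT2i (adjusted p = 0.610).

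Rgs2, a brake on Gq signalling that the cGMP kinase activates, fell from 5.17 to 9.85 TPM (median 7.55 TPM) in non_failing to 2.46 to 5.89 TPM (median 4.67 TPM) in HFpEF+Veh, with 6 of 8 libraries below every non_failing one on the CPM scale (log2 fold change -0.90, SE 0.17, adjusted p = 0.00133). Pde11a, another dual phosphodiesterase, rose from a median of 0.361 TPM (0.128 to 0.547 TPM) to 0.846 TPM (0.482 to 1.16 TPM), with all 8 HFpEF+Veh libraries above the non_failing mean (log2 fold change 1.09, SE 0.22, adjusted p = 0.00256). Slc7a1, the main carrier of arginine into cells, fell from a median of 4.08 TPM to 2.72 TPM (log2 fold change -0.58, SE 0.16, adjusted p = 0.0426). The first 3 calls held in all 38 fits without 1 library, while that of Slc7a1 held in 26 and reached an adjusted p of 0.106 without V2530. Across the other settings the adjusted p of Slc7a1 ran from 0.00657 without V2523 to 0.114 with library size alone.

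**Figure D5:**
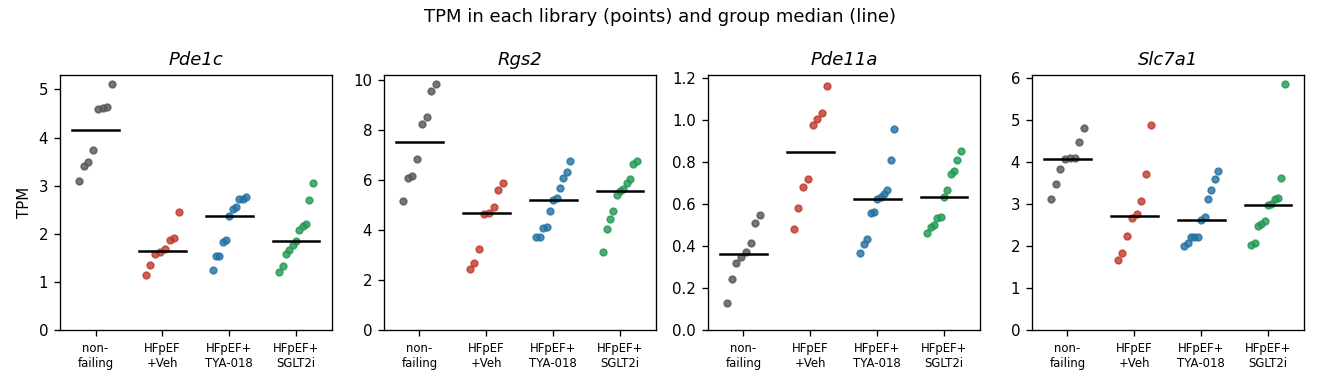
TPM of Pde1c, Rgs2, Pde11a and Slc7a1, 1 point per library sorted by level within group, the line marking the group median; vertical axes start at 0. All 8 non_failing libraries lie above all HFpEF libraries for Pde1c, and the 3 HFpEF groups overlap in every panel.

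Against HFpEF+Veh, each drug had 2 pathway calls, both lower, 3.28% of the list; 1.10% of all genes were called lower for TYA-018 and 0.719% for SGLT2i. Over all genes the 117 calls for SGLT2i became 2 without V2523, and the 266 for TYA-018 became 196. Among the list's calls were Slc7a2, a cationic amino acid carrier, for TYA-018 (log2 fold change -0.75, adjusted p = 0.0313) and Pcbd1, which recycles tetrahydrobiopterin, for SGLT2i (log2 fold change -1.99, adjusted p = 0.0416). These calls rested on V2523, where Slc7a2 stood at 1.83 TPM and Pcbd1 at 9.38 TPM, above the next HFpEF+Veh library at 1.04 and 1.02 TPM. Without V2523 the list had 0 calls for either drug, and the log2 fold change became -0.47 for Slc7a2 under TYA-018 (adjusted p = 0.107) and -0.46 for Pcbd1 under SGLT2i (adjusted p = 0.640). Over the other settings the list's count ran from 0 (limma, only the 2 groups) to 7 (library size alone, 1 surrogate variable) for TYA-018, and from 0 (limma, only the 2 groups) to 5 (no low-count filter) for SGLT2i. At these upper ends the counts over all genes were 1096 and 1239 for TYA-018 and 457 for SGLT2i. Leaving V2523 out also added calls: Pcbd1 was then lower than in non_failing under TYA-018 (log2 fold change -1.28, adjusted p = 0.0103) and SGLT2i (log2 fold change -1.50, adjusted p = 0.00242). Of the 38 fits without 1 library, 1 called it for TYA-018 and 2 for SGLT2i. Pcbd1 was scarce, at 1 to 17 counts per library in HFpEF+TYA-018 and 1 to 18 in HFpEF+SGLT2i. It exceeded 10 counts in 5 of 11 libraries of each. In these comparisons without V2523 all 8 hepatocyte markers were also called lower, and the non_failing library with the most Pcbd1 (V2504, 1.95 TPM) had the most hepatocyte transcripts of its group (339 TPM).

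Against non_failing, 2 pathway genes were higher and 5 lower in HFpEF+TYA-018 (11.5% of the list), beside 4.00% of all genes higher and 3.39% lower. In HFpEF+SGLT2i 2 were higher and 6 lower (13.1%), beside 3.46% of all genes higher and 2.99% lower. Without V2523 the list had 9 calls in each, and over the other settings 5 (limma) to 13 (1 surrogate variable) for TYA-018 and 4 (limma) to 15 (1 surrogate variable) for SGLT2i. Over all genes, 1017 were called for TYA-018 and 888 for SGLT2i, and 1123 and 953 without V2523. With 1 surrogate variable these counts were 1946 and 1673. With limma they were 597 or 616 for TYA-018 and 527 or 558 for SGLT2i. Ass1, which rebuilds arginine from citrulline, was lower in both, by log2 fold changes of -0.91 (adjusted p = 0.00123) and -0.80 (adjusted p = 0.00457). In HFpEF+Veh its log2 fold change against non_failing was -0.32 (adjusted p = 0.442), and without V2523 it was called lower at -0.57 (adjusted p = 0.0408). Hepatocyte transcripts were higher in non_failing, as given above, and their part in Ass1 and Pcbd1 was not tested. Pde11a stayed higher in both, by 0.76 (adjusted p = 0.0166) and 0.82 (adjusted p = 0.0111). Abcc4, which exports cyclic nucleotides, was higher in HFpEF+SGLT2i (log2 fold change 0.36, adjusted p = 0.0251; called in 36 of 38 fits without 1 library, lost without V2501 at 0.0568, with library size alone at 0.0668, with limma at 0.0920 and 0.0906 and with only the 2 groups at 0.0678), and the globin Hbb-bs in HFpEF+TYA-018 (log2 fold change 1.15, adjusted p = 0.0385; called in 28 of 38 fits without 1 library, with an adjusted p of up to 0.0859 without V2503, and lost with limma at 0.0712 and 0.0685 and with the length covariate at 0.0516), where the summed erythrocyte genes had a median of 12452 TPM against 5841 TPM in non_failing. In HFpEF+Veh, with a median of 9124 TPM for these genes, Hbb-bs gave a log2 fold change of 1.26 against non_failing (adjusted p = 0.0547; 1.37 and 0.0268 without V2523). For Abcc4 the value in HFpEF+Veh against non_failing was 0.30 (adjusted p = 0.125), with 8 of 8 libraries above the non_failing mean. Between the drugs edgeR called 0 pathway genes, against 2 with 1 surrogate variable and 3 with the length covariate. Over all genes those settings called 553 and 474.

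Genes of the pathway with a fixed place in the description but no call in any comparison were Npr1, the natriuretic peptide receptor that makes cGMP (group medians 8.38 to 9.997 TPM), the phosphodiesterases Pde2a (1.11 to 1.90 TPM) and Pde9a (0.908 to 1.27 TPM), Nostrin, which traffics the endothelial synthase (3.40 to 4.33 TPM), and the kinase partner Mrvi1 (2.04 to 2.15 TPM). Among the marker lists, 4 of 8 cardiomyocyte genes were called lower in HFpEF+Veh against non_failing, with 2 of 10 smooth muscle and pericyte genes lower and 1 of 6 fibroblast genes higher. No endothelial, macrophage or neutrophil marker was called there, with or without V2523. None of the 8 hepatocyte, 5 erythrocyte and 4 neuron and Schwann cell markers was called with V2523, but without it 7 hepatocyte markers were called lower (median log2 fold change -3.64, where it was 0.76 with V2523), 4 erythrocyte markers higher, and 1 neuron and Schwann cell marker and 1 smooth muscle and pericyte marker higher. The summed hepatocyte level had a median of 56.2 TPM in non_failing and 5.37 TPM in HFpEF+Veh. The summed level of the 4 neutrophil genes had a median of 4.82 TPM in non_failing, 8.72 TPM in HFpEF+Veh, 7.60 TPM in HFpEF+TYA-018 and 18.8 TPM in HFpEF+SGLT2i. The part of these cell types in the members' levels was not tested.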

How the data were processed

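Polyadenylated RNA of 38 left ventricles was sequenced with a stranded kit. The authors quantified transcripts with Salmon 1.6.0 (per the labels) and summed them to genes. The deposited expected counts are estimated reads per gene, with fractions where reads are shared. The deposited TPM values were scaled by the authors for transcript length and library size, and a deposited table of effective lengths in bases, used for the length relation and as an offset, is a score per gene and library. The labels and the paper differ on sex, read length, read pairing, treatment time and genome build; the symbols and coordinates used here are GRCm38. Columns that could not be mapped to a sample numbered 0.

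Expected counts were rounded, filtered with filterByExpr and scaled by TMM. The 6 comparisons were tested in 1 model of the 4 groups without covariates with edgeR (version 4.0.16, R 4.3.3) by its quasi-likelihood F test (two-sided, Benjamini-Hochberg over 13765 genes, called at adjusted p under 0.05). The study ranked genes on log2(TPM + 1), which was run here with limma 3.58.1 as an alternative. Nos1 was tested on CPM by permutation. The script was tested on simulated data with known changes. Alternatives were other size factors, filters, DESeq2 1.42.0, 1 surrogate variable from sva 3.50.0, length terms and leaving out each library; the length covariate and leaving out V2523 were chosen after the data were seen.

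All members were named, with the called pathway genes of smallest p (up to 3 higher and 3 lower per comparison), 8 further pathway genes by level, the first genes of each marker list, and for each tested member the 3 genes of mean log2 CPM of at least 1 with the highest Pearson r. Gchfr is among the 8, and its call was described after its value was seen. The members and lists were chosen with earlier results of these data known. Marker lists covered endothelial, smooth muscle and pericyte, cardiomyocyte, fibroblast, macrophage, neutrophil, adipocyte, hepatocyte, erythrocyte, and neuron and Schwann cells. The counts of the pathway list cover all its members, but the values of 1 listed gene are not reported here. Older symbols matched 5 listed genes. The labels give 1 mouse per library and no batch.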

Additional observations from a re-analysis of the deposited data

Results flagged for a closer look

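A single library stood apart from the other 7 of HFpEF+Veh in 4 results. Chance gives such a gap in about 1 in 20 groups, and 52 gene and group combinations were examined. These covered only non_failing and HFpEF+Veh, the groups of 8 libraries. Neither drug group of 11 libraries was examined for gaps. Prkg1 was highest in V2532 at 1.54 TPM, above the next library at 1.10 TPM. V2532 also had 13 of the 30 Nos1 counts of its group. It was the deepest HFpEF+Veh library, at 57723800 estimated counts against a group median of 29101600. Its Nos1 level was 0.0189 TPM, beside medians of 0.00866 TPM in HFpEF+Veh and 0.0182 TPM in non_failing. V2532 had the longest median effective length of its group, 2301 bases. Within HFpEF+Veh, V2532 included, Prkg1 was higher in libraries with a longer such length (r = 0.81). The part of depth and length in these values was not tested. In V2523, Slc7a2 was at 1.83 TPM (next 1.04 TPM), Pcbd1 at 9.38 TPM (next 1.02 TPM) and Ass1 at 8.25 TPM (next 4.47 TPM). That library held the hepatocyte transcripts described above. In HFpEF+SGLT2i, outside that screen, Ddah1 was highest in V2562 at 1.68 TPM, with the next library at 0.944 TPM.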

How the results depend on the processing

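The Nos2 call in HFpEF+TYA-018 against non_failing held in each alternative run. Counts of genes called moved more. In HFpEF+Veh against non_failing 1 surrogate variable gave 696. In HFpEF+TYA-018 against HFpEF+Veh library size alone gave 1096 (2.28% of them higher, against 43.2%), no low-count filter 618, DESeq2 402, limma 42 (pseudocount 1) and 24 (pseudocount 0.1), only the 2 groups compared 58, 1 surrogate variable 1239 and the length covariate 889, and members called became 2 with library size alone (Nos2, Ddah1) and 2 with the surrogate variable (Nos2, Nos3). In HFpEF+SGLT2i against HFpEF+Veh no filter gave 457, limma 0 and 0, the 2 groups alone 3, and leaving out V2523 2. Between the drugs DESeq2 gave 187, the length offset 5, the surrogate variable 553 and the length covariate 474. In HFpEF+TYA-018 against non_failing limma gave 597 and 616 and the surrogate variable 1946, with 2 members called. In HFpEF+SGLT2i against non_failing limma gave 527 and 558, the surrogate variable 1673 and the length covariate 1743. The cause of these shifts was not tested. Leaving out 1 library gave 167 to 393 genes in HFpEF+TYA-018 against HFpEF+Veh with 0 to 1 members, 2 to 175 in HFpEF+SGLT2i against HFpEF+Veh and 0 to 17 between the drugs.

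Values near 0 changed sign. In HFpEF+TYA-018 against HFpEF+Veh, Gch1 became -0.051 with library size alone and -0.049 and -0.058 with limma, Pde5a -0.10 with library size alone, -0.046 and -0.094 with limma and -0.027 with the length covariate, and Prkg1 0.011 with that covariate. In HFpEF+SGLT2i against HFpEF+Veh, Gch1 became -0.063 with library size alone and -0.051 and -0.061 with limma, and Cav1 0.011 with the covariate. Leaving out 1 library spanned 0 for Cav1 (-0.088 to 0.015 under TYA-018 and -0.090 to 0.018 under SGLT2i), Ddah1 in HFpEF+Veh against non_failing (-0.061, without V2523, to 0.17), Gch1 (-0.034 to 0.049) and Pde5a (-0.16 to 0.0030) under SGLT2i, Pde5a under TYA-018 (-0.035 to 0.10), and Prkg1 (-0.084 to 0.068 in HFpEF+Veh against non_failing, -0.11 to 0.041 under TYA-018, -0.10 to 0.049 under SGLT2i). By counts rather than TPM, the Ddah1 share was 15.0% in non_failing, 12.1% in HFpEF+Veh, 9.94% in HFpEF+TYA-018 and 12.3% in HFpEF+SGLT2i. Depth limits Nos1. No paired analysis was possible because mouse numbers are not shared between groups.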
